A study of Danio rerio with 12 samples.

Results

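The 65 genes described here encode proteins of the mitochondrial ribosome and were followed in zebrafish embryos with and without the RNA helicase gene ddx3xb. They are the Ensembl gene IDs, among 33737 with a value, whose zebrafish symbol begins with mrpl or mrps and a digit, and whose RPKM (reads per kilobase of gene, scaled to sequencing depth) was at least 1 in at least 1 of 6 groups. The name table gives such a symbol to 75 IDs, of which 65 were analysed and 10 were not analysed here. All 65 met that level, 64 of them in every group, the lowest peak value being 4.08 for MRPL10. By symbol, 43 belong to the large subunit (mrpl) and 22 to the small subunit (mrps), and each symbol stands on 1 ID. Symbols are spelled as the name table gives them, in capitals for some genes.

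Control embryos were labelled wild type and ddx3xb+/+, and mutant embryos Ddx3xb-/Ddx3xb- and ddx3xb-/-. Both were collected whole at 2, 4 and 6 hours post fertilization (hpf), and polyadenylated RNA was sequenced. Each of the 6 groups had 2 samples but only 1 deposited value per gene, so every value below is the authors' group value, with no error and no p-value. Replicate spread is therefore not known for any of these genes, and a difference is described by its size alone. The labels do not give the lesion of the mutant allele, the genotype of the mothers, or the number of embryos in a sample. Mutant groups held ddx3xb RNA at 0.215%, 5.93% and 25.2% of the control value at 2, 4 and 6 hpf, which goes with the labels most clearly at 2 hpf. Stage markers also went with the labelled ages in controls: the egg RNA buc stood at 301, 138 and 6.13 RPKM and the mesoderm gene tbx16 at 0.0075, 55.1 and 132. In whole embryos fewer cells that hold an RNA and less of it per cell cannot be told apart, and in polyadenylated RNA neither can a lower amount and a shorter poly(A) tail.

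Mitochondria carry their own ribosomes, which make the few respiratory chain proteins encoded by mitochondrial DNA. The ribosomal RNAs come from that DNA, but all of the ribosomal proteins are encoded in the nucleus, made in the cytosol and imported. The small subunit binds the messenger RNA and reads its codons, and the large subunit joins the amino acids and is tethered to the inner membrane. Some of the proteins have a counterpart in bacterial ribosomes, and the others are special to mitochondria. An early embryo inherits its mitochondria from the egg, together with maternal RNA for nuclear genes, until its own genome is switched on and maternal RNA is cleared.

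The genes were expressed at moderate levels that differed widely between members. Over the 65 genes the median RPKM was 13.2, 16.6 and 18.02 in controls at 2, 4 and 6 hpf, and 18.5, 26.0 and 15.6 in mutants. Their summed RPKM made up 0.282%, 0.306% and 0.3003% of the sum over all IDs in controls and 0.312%, 0.376% and 0.257% in mutants. The mutant share was thus above the control share at 2 and 4 hpf and below it at 6 hpf. By mean RPKM over the 6 groups the most abundant were MRPL28 (62.3), MRPS25 (60.0), mrps28 (56.4), MRPL38 (55.2) and mrps6 (54.4). The least abundant were mrpl53 (2.37), MRPL10 (2.55), mrpl58 (3.51), MRPL45 (4.84) and mrpl52 (5.60). MRPL10 is a protein of the stalk base where translation factors bind, and mrpl58 is a hydrolase that rescues stalled mitochondrial ribosomes, both as known from mammals.

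The subunits started at different levels. At 2 hpf in controls the 22 small subunit genes had a median RPKM of 27.4 and the 43 large subunit genes one of 9.81, a comparison between genes on a scale per length. At 4 hpf the medians were 29.0 and 13.0, and at 6 hpf 17.1 and 19.1, so that by then they lay close together. In mutants the small subunit medians were 27.3, 34.1 and 18.5 and those of the large subunit 15.8, 20.7 and 15.4. The ranges overlapped in every group, since large subunit genes ran from 0.377 to 93.7 RPKM in controls at 2 hpf and small subunit genes from 4.44 to 48.8. The heat map of levels shows all 65 genes.

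**Figure D1:**
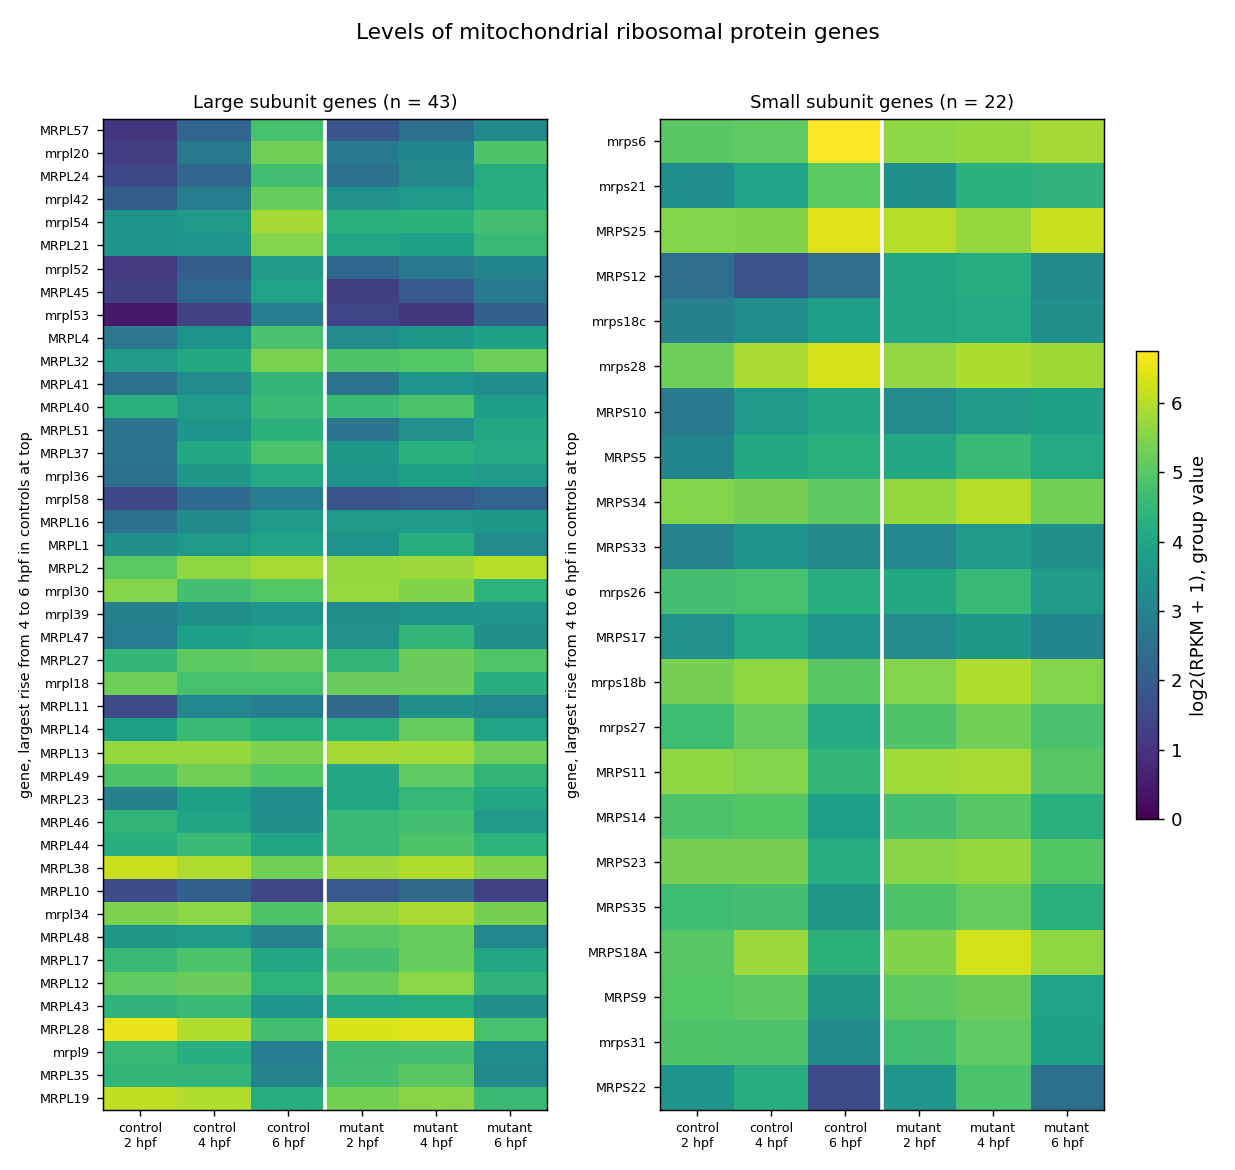
Levels of the 43 large and 22 small subunit genes as log2(RPKM + 1), 1 colour per gene (row) and group (column), ordered by the difference between 6 and 4 hpf in controls. Genes at the top, such as MRPL57, mrpl20 and mrps6, are brightest in controls at 6 hpf, and those at the bottom, such as MRPL19 and MRPS22, are dimmest there.

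In controls most members were slightly higher at 4 than at 2 hpf. Differences here and below are between values of log2(RPKM + 1), a scale that understates the change of low genes, and a gene is counted as higher or lower when it differs by at least 1 log2. By that measure 7 of 65 stood higher and 0 lower, where 8.79% of the 17053 genes with an RPKM of at least 1 in any group were higher and 2.84% lower. The median was 0.37, against 0.05 over all those genes, and 50 of 65 members lay above 0, against 55.5% of all. MRPL11, of the factor-binding stalk, stood at 1.91 RPKM at 2 hpf and 7.70 at 4 hpf, a difference of 1.58. Behind it came mrpl20 (1.33 and 5.66 RPKM), counterpart of a bacterial protein that binds ribosomal RNA, MRPL37 (5.05 and 15.9), MRPL57 (1.09 and 3.63) and mrpl36 (4.63 and 10.9). MRPS5, the sole small subunit gene of the 7, was at 7.23 and 16.2, and MRPL45, which helps anchor the ribosome at the inner membrane, at 1.41 and 3.87. The largest decreases did not reach 1 log2. They were of mrpl30 (44.7 and 25.5), MRPS12 (4.44 and 2.33), MRPL28 (93.7 and 61.8), MRPL40 (18.6 and 12.2) and mrpl18 (37.5 and 26.6).

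From 4 to 6 hpf the members of controls parted. By 1 log2 or more, 14 of 65 lay above the earlier value and 14 below it, where 17.3% of all genes were higher and 35.1% lower, 33 lay above 0 against 36.2% of all, and the median was 0.00 against -0.52. MRPL57 stood at 3.63 RPKM at 4 hpf and 26.7 at 6 hpf, a difference of 2.58, and mrpl20 at 5.66 and 38.8, likewise 2.58. MRPL24, which lies by the exit of the peptide tunnel, was at 3.66 and 25.2, mrpl42 at 6.22 and 35.2 and mrpl54 at 11.5 and 56.2. The small subunit genes among the 14 were mrps21 and mrps6, the latter at 33.6 and 107. MRPL57, mrpl20, MRPL24, mrpl42 and mrpl54 lay under the members' median at 4 hpf and above it at 6 hpf.

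Others went the opposite way in the same embryos. MRPS22, a small subunit protein special to mitochondria, stood at 17.3 RPKM at 4 hpf and 1.92 at 6 hpf, a difference of -2.65. MRPL19, counterpart of a bacterial protein at the face between the subunits, was at 62.0 and 17.4, mrps31 at 28.3 and 8.17, MRPS9 at 33.0 and 10.9 and MRPS18A at 52.7 and 19.2. Of 43 large subunit genes 12 were higher and 5 lower, and of 22 small subunit genes 2 were higher and 9 lower. The balance turned with the scaling of the tables, as 30 of 65 were higher and 1 lower with trimmed-mean rescaling, where 30.1% of all genes were higher and 19.9% lower. With quantile normalization 23 were higher and 3 lower, where 23.6% and 25.7% of all genes were. The small subunit median of -0.58 turned to 0.26 and -0.03 under these, and that of the large subunit, 0.22, went to 1.02 and 0.68. In each of these scalings the large subunit median was the higher one.

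In mutants fewer members stood higher at 6 than at 4 hpf by 1 log2. From 2 to 4 hpf 4 of 65 were higher and 0 lower (3.21% and 0.264% of all genes), with a median of 0.29 against 0.03 over all genes, and 60 members lay above 0, against 54.7% of all. The 4 were MRPS22 (10.5 RPKM at 2 hpf and 27.7 at 4 hpf), MRPL11 (4.06 and 9.57), MRPL49 (15.8 and 33.4) and MRPL47 (9.65 and 20.7), the last at 6.33 and 13.0 in controls. From 4 to 6 hpf 2 were higher and 16 lower, where 12.3% of all genes were higher and 18.9% lower. Both were of the large subunit, mrpl20 (7.44 and 28.6) and mrpl53 (1.09 and 3.25). The lower ones were led by MRPS22 (27.7 and 4.64), MRPL48 (35.0 and 7.70), MRPL35 (31.4 and 8.38), MRPL28 (86.6 and 26.9) and mrpl9 (26.0 and 8.78). Above 0 lay 19 members, against 36% of all genes, and the median of -0.51 was below the -0.33 of all genes. With trimmed-mean rescaling it was -0.05 and with quantile normalization -0.23, with 7 members higher and 5 lower under either, where 17.2% and 6.503% of all genes were with the first and 13.4% and 12.5% with the second.

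From 2 to 6 hpf as a whole, 24 members of controls were higher and 12 lower by 1 log2 (24.1% and 35.6% of all genes), and 36 lay above 0 against 40.3%. In mutants 6 were higher and 7 lower (15.5% and 19.9%), and 29 lay above 0 against 39.7%. With trimmed-mean rescaling the control counts were 33 and 3, where 5729 and 4062 of all 17053 genes were higher and lower. With quantile normalization they were 30 and 5, where 4454 and 5348 of all genes were. The widest span in controls was that of mrpl20, from 1.33 to 38.8 RPKM, and it ran from 5.97 to 28.6 in mutants.

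The order of the members from 4 to 6 hpf was much alike in both genotypes, as was that of all genes, and the increases were smaller in mutants. Across the 65 genes the differences correlated with Pearson's r = 0.83 and Spearman's rho = 0.79, and across all 17053 genes with 0.81 and 0.80. Both are descriptions over genes of tables that share no sample. The 14 genes higher in controls had a median difference of 1.70 there and 0.47 in mutants, where 13 of 14 lay above 0 and 2 reached 1 log2. The 14 genes lower in controls had medians of -1.30 and -0.95, and all 14 lay below 0 in mutants. For the 5 of these in the large subunit the medians were -1.34 and -1.47, so on the deposited scale the median decrease was no smaller in mutants. MRPL28, MRPL35 and mrpl9 decreased more in mutants, and MRPL19 (-1.78 and -1.01) and MRPL43 (-1.05 and -0.79) less. For the 9 in the small subunit the medians were -1.18 and -0.86. Trimmed-mean rescaling moved the median of all genes over this interval from -0.52 to 0.10 in controls and from -0.33 to 0.01 in mutants. Which genotype had the larger decreases may thus change with the scaling. The genes were picked on the control values, a choice that favours a wider control median. Over all genes picked in the same way the medians were 1.73 and 1.10 for the 2952 higher ones and -1.69 and -0.93 for the 5994 lower ones. Of the 2952, 2720 lay above 0 in mutants and 1596 reached 1 log2, and of the 5994, 5785 lay below 0. The members' counts on either side of 0 were thus near those of all genes, while their 2 of 14 reaching 1 log2 was a smaller share. The plot of both courses shows the members that departed from the rest, such as MRPL40, which was higher at 6 hpf in controls (12.2 and 23.4) and lower in mutants (27.8 and 12.5).

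**Figure D2:**
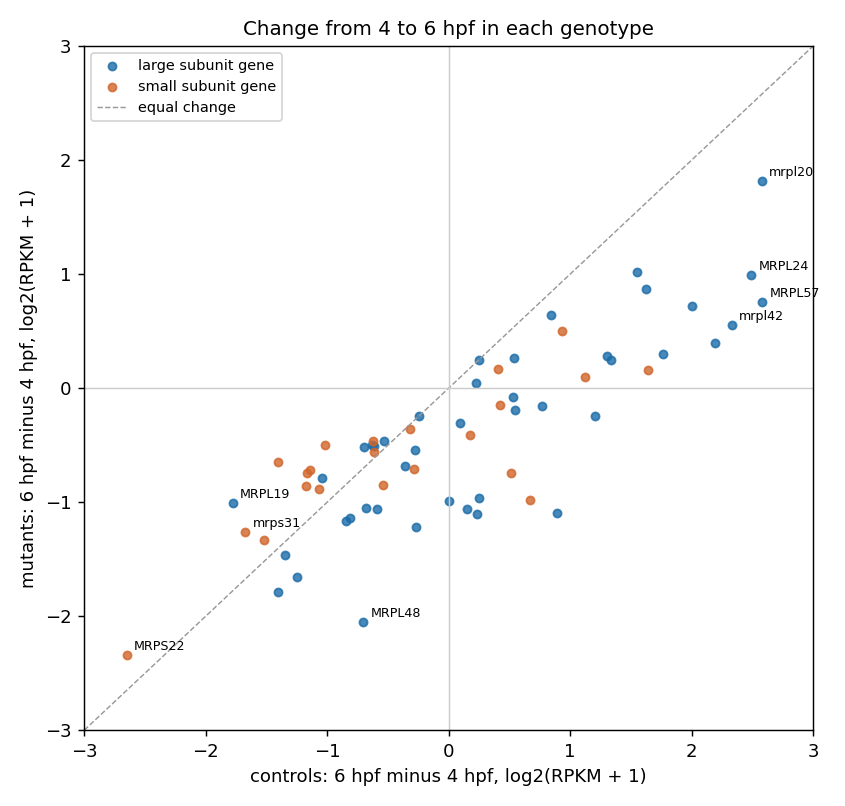
Difference between 6 and 4 hpf, in log2(RPKM + 1), of each member in controls (horizontal) and in mutants (vertical), with large subunit genes in blue and small subunit genes in orange. Points to the right lie below the line of equal change, as MRPL57 does at 2.58 and 0.75, and MRPS22 stands lowest in both genotypes at -2.65 and -2.34.

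At 2 hpf, when the RNA is nearly all maternal, members were more often above the control value than below it in mutants. A value at least 1 log2 above control was seen in 11 of 65 and one as far below in 0, where 4.14% of all genes were higher and 3.34% lower. The median difference was 0.27 against 0.01 over all genes, and 52 of 65 lay above 0, against 51.6% of all. MRPS12, whose bacterial counterpart sits in the decoding centre, stood at 4.44 RPKM in controls and 15.9 in mutants, a difference of 1.64. mrpl20 was at 1.33 and 5.97 (1.58), mrpl42 at 2.94 and 9.58 (1.42) and MRPL48 at 10.98 and 30.9 (1.42). Next came MRPL32 (12.3 and 29.0), mrpl52 (1.18 and 3.88), mrps18c (6.63 and 15.6), MRPL16 (4.71 and 11.4), MRPL23 (6.78 and 15.4), MRPL24 (1.78 and 4.82) and MRPS5 (7.23 and 15.7). MRPL16 has a bacterial counterpart near the peptidyl transferase centre, and MRPL23, like MRPL24, lies by the tunnel exit.

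The lowest members in mutants at 2 hpf did not reach 1 log2. MRPL49 stood at 28.9 RPKM in controls and 15.8 in mutants, MRPL19 at 68.1 and 39.3, mrps26 at 26.3 and 16.1, MRPL38 at 73.5 and 52.9 and MRPL28 at 93.7 and 79.7. In controls all 11 higher genes lay under the members' median of 13.2 RPKM and these 5 all above it, a contrast that uses the same control table as the difference. The large subunit median was 0.32, with 8 of 43 genes higher, and that of the small subunit 0.18, with 3 of 22. With quantile normalization 7 in place of 11 members were higher by 1 log2, where 2.96% of all genes were.

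At 4 hpf the members again lay mostly above control, but few by much. The 1 log2 size was reached upward by 3 of 65 and downward by 0, where 3.79% of all genes were higher and 6.31% lower. The count past 1 log2 was thus near that of all genes, while the median was 0.32 against 0.01, and 56 of 65 lay above 0, against 50.6%. MRPS12 was at 2.33 RPKM in controls and 17.1 in mutants, a difference of 2.44 and the largest of any member at any age. MRPL48 was at 12.1 and 35.0 (1.46) and MRPL40 at 12.2 and 27.8, with MRPL24 (3.66 and 8.10) and MRPL32 (16.1 and 30.6) just short of 1 log2. The lowest were MRPS17 (16.6 and 11.1), mrpl58 (4.10 and 2.78), MRPL19 (62.0 and 45.8), MRPL43 (23.3 and 17.1) and MRPL45 (3.87 and 2.67). The medians of the subunits were close, at 0.34 for the large and 0.32 for the small.

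**Figure D3:**
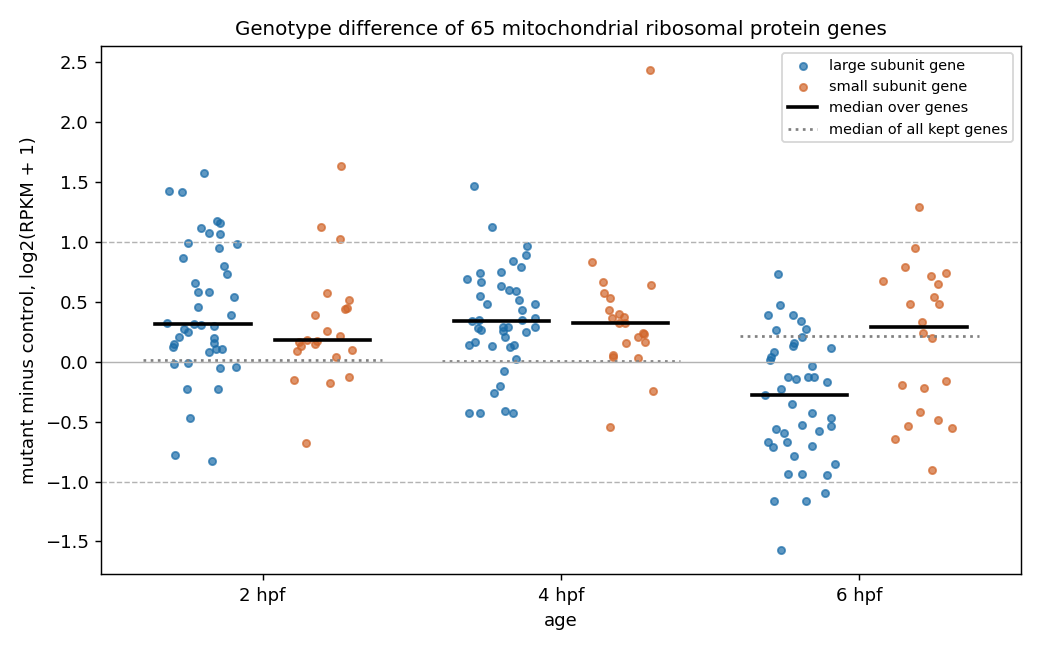
Mutant minus control in log2(RPKM + 1) for each member at 2, 4 and 6 hpf, by subunit, with a bar at the median over genes and a dotted line at the median of all 17053 genes. The members lie mostly above 0 at 2 and 4 hpf. At 6 hpf the bars stand at -0.28 for the large and 0.29 for the small subunit, the latter being -0.15 with trimmed-mean rescaling.

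At 6 hpf members were less often above control than genes in general, the large subunit genes most of all. Among the 65 members 1 stood at least 1 log2 above control and 4 as far below, where 18.3% of all genes were higher and 8.91% lower, and 27 of 65 lay above 0, against 59.8%. The 4 lower genes were all of the large subunit. MRPL57 stood at 26.7 RPKM in controls and 8.30 in mutants (-1.57), MRPL41 at 21.2 and 8.91 (-1.16), MRPL45 at 14.0 and 5.70 (-1.16) and mrpl54 at 56.2 and 25.7 (-1.10). MRPL4, which reaches into the peptide tunnel, was at 26.9 and 13.5 (-0.94). The 1 higher gene was MRPS18A, at 19.2 and 48.6 (1.29), and it was followed by MRPS22 (1.92 and 4.64), MRPS12 (4.30 and 8.16), MRPS23 (17.5 and 29.8) and MRPL23 (8.84 and 15.4).

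The median at 6 hpf was -0.28 over the large subunit genes, of which 14 of 43 lay above 0, and 0.29 over the small subunit genes, of which 13 of 22 did. The small subunit values lay near those of all genes, with a median of 0.22 and 59.8% above 0. The small subunit median was -0.15 with trimmed-mean rescaling and 0.08 with quantile normalization, and the large subunit median -0.72 and -0.50. The large subunit median was thus the lower one in each scaling, whereas the sign of the small subunit's changed. MRPS18A has a small subunit symbol but sits in the large subunit of the mammalian mitochondrial ribosome, and counting it there gave medians of -0.26 and 0.24. Over all 65 genes the median was -0.16, or 0.37 below the median of all genes (0.22). With trimmed-mean rescaling it was -0.60 with 0 higher and 18 lower, where 12.7% of all genes were higher and 18.1% lower. With quantile normalization it was -0.38 with 9 of 65 lower, a share near the 14.2% of all genes. Trimmed-mean rescaling moved the median of all genes at 6 hpf to -0.11.

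Stage markers also stood apart between the genotypes. At 4 hpf the mesoderm gene tbx16 was at 55.1 RPKM in controls and 8.91 in mutants and the yolk syncytial gene mxtx2 at 91.2 and 28.6. The 4 enveloping layer keratins measured were then all below control, with sums of 147 and 29.4, and 3 of the 5 egg RNAs above it, buc at 138 and 246. At 6 hpf tbx16 was at 132 and 179 and mxtx2 at 3.58 and 31.6, both above control. The 5 egg RNAs were all above control at 6 hpf, buc at 6.13 and 61.7 RPKM, with sums of 44.9 in controls and 166 in mutants. The 4 gastrula genes SOX2, otx2a, cdx4 and msgn1 were all below, cdx4 at 155.9 and 11.5, with sums of 441 and 61.0, and the keratins also, with sums of 4507 and 2560. The paralog ddx3xa stood at 32.1 and 117.9. The part of these in the members' values was not tested.

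Over the 3 ages the most frequent pattern among members was a value above control at 2 and 4 hpf and below it at 6 hpf. It was seen in 28 of 65 members, 21 of the large and 7 of the small subunit, and in 9.73% of all genes. A further 22 members lay above control at every age (28.1% of all genes), 11 of either subunit, and 6 below it at every age (16.9%). With trimmed-mean rescaling the 3 counts were 38, 9 and 8, where 12.8%, 20.5% and 24.2% of all genes had these patterns. With quantile normalization they were 33, 15 and 6, against 13.6%, 24.1% and 19.2%, so that the share above control at every age was then near that of all genes. The difference itself differed between ages: from 2 to 4 hpf it was higher by 1 log2 in 0 members and lower in 2 (1.38% and 4.53% of all genes), with 34 above 0 against 46%. From 4 to 6 hpf it was higher in 0 and lower in 18 (17.9% and 8.19%), with 18 above 0 against 61.2%. From 2 to 6 hpf it was higher in 1 and lower in 22 (18% and 10.9%), with 22 above 0 against 58.1%. Of the 22, 19 were large subunit genes. Single genes traced the reversal in full. mrpl42 stood at 2.94, 6.22 and 35.2 RPKM in controls at 2, 4 and 6 hpf and at 9.58, 11.9 and 17.9 in mutants, and mrpl54 at 9.81, 11.5 and 56.2 against 18.7, 19.3 and 25.7. In both, mutants started higher, showed little difference between 2 and 4 hpf and ended lower.

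Other members kept 1 direction. MRPS12 was higher in mutants at each age, at 4.44, 2.33 and 4.30 RPKM in controls and 15.9, 17.1 and 8.16 in mutants. MRPL48 stood at 10.98 and 12.1 in controls and 30.9 and 35.0 in mutants at 2 and 4 hpf, and was nearly level at 6 hpf, at 7.03 and 7.70. MRPS18A stood at 31.2, 52.7 and 19.2 in controls and 43.1, 76.8 and 48.6 in mutants, so its peak at 4 hpf was shared and its 6 hpf value was not. MRPS22 had a like peak at 4 hpf, at 10.3, 17.3 and 1.92 in controls and 10.5, 27.7 and 4.64 in mutants. mrps26, MRPL43, MRPL49, MRPL51, MRPL45 and MRPS17 were the 6 below control at each age, mrps26 at 26.3, 26.7 and 18.02 in controls and 16.1, 22.3 and 11.96 in mutants.

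**Figure D4:**
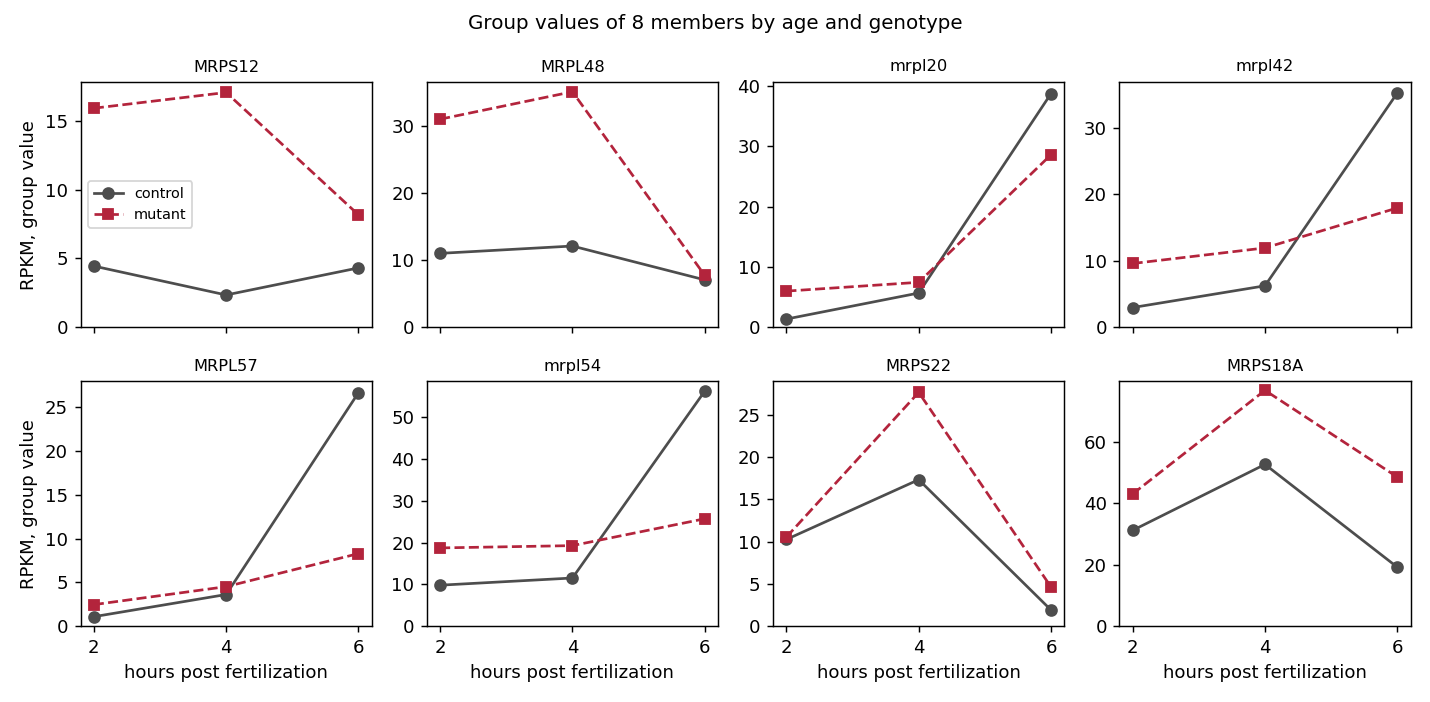
RPKM of 8 members in controls (grey circles) and mutants (red squares) at 2, 4 and 6 hpf, 1 group value per point, each panel with its own axis from 0. MRPS12 and MRPL48 stand far above control at 2 and 4 hpf, mrpl42, MRPL57 and mrpl54 cross below control by 6 hpf, and MRPS22 and MRPS18A peak at 4 hpf in both genotypes.

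The course in controls at the other ages gave a grouping that shares no table with the genotype difference. Mutants at 2 hpf had a median difference of 0.80 over the 14 members with the later increase from 4 to 6 hpf in controls, and 13 of 14 lay above 0. Over the 14 with a decrease the median was 0.10, and 9 lay above 0. Over all genes grouped in the same way the medians were 0.00 and -0.01, with 49.5% and 47.8% above 0. With trimmed-mean rescaling 30 members were in the first group (median 0.55) and 1 in the second, so the second group could hardly be described. At 6 hpf the median was -0.47 over the 7 members with an increase in controls from 2 to 4 hpf, 1 of them above 0. For the 1499 genes so grouped it was -0.24, with 40.0% above 0. At 4 hpf the median was 0.31 over the 24 members with an increase from 2 to 6 hpf, of which 20 lay above 0. For the 4108 genes so grouped it was -0.22, with 27.6% above 0. Over the 12 members with a decrease it was 0.38, 11 of them above 0, and over the 6078 genes so grouped 0.14, with 63.1% above 0. On the deposited scale members of either course thus mostly lay above control at 4 hpf. With trimmed-mean rescaling 27 of 33 members with an increase and 2 of 3 with a decrease did. Of all genes so grouped 1645 of 5729 and 2504 of 4062 did. With quantile normalization 24 of 30 and 4 of 5 members did, and 1719 of 4454 and 3389 of 5348 of all genes. The group with a decrease thus held few members under either.

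The origin of the protein parted the medians less than the subunit did at 6 hpf. The 37 members with a bacterial counterpart had medians of 0.32, 0.36 and -0.13 at 2, 4 and 6 hpf, and the 27 special to mitochondria 0.22, 0.24 and -0.22, with mrps28 left unclassed. The 4 genes lower by 1 log2 at 6 hpf were all of the second kind and all of the large subunit, so origin and subunit cannot be told apart in them. They made up 14.8% of the second kind and 9.30% of the large subunit genes, where 8.91% of all genes were lower. The share of the large subunit was thus near that of all genes. MRPL4 and MRPL21 of the first kind, both at -0.94, fell just short. At 2 hpf 8 of the 37 genes of the first kind were higher (21.6%) and 3 of the 27 of the second (11.1%). Both shares were above the 4.14% of all genes, and with counts this small the contrast between the kinds rests on few genes. By gene order in RefSeq's GRCz12tu assembly, in which all 65 symbols were found, 1 pair of members are direct neighbours, mrps11 and mrpl46. MRPS11 stood at 48.8, 44.6 and 20.8 RPKM in controls and 55.1, 57.7 and 30.8 in mutants, and MRPL46 at 20.4, 14.7 and 9.46 and at 22.7, 25.4 and 11.6. Both were highest at 2 hpf in controls and at 4 hpf in mutants, as were other members such as MRPL28 and MRPL19. On the deposited scale both were among the 22 of 65 members above control at each age, where 28.1% of all genes were.

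Genes that serve the mitochondrial ribosome in other ways showed mixed differences. Mitochondrial translation factors (11 genes) had medians of 0.11, 0.16 and 0.28, with 1 higher and 2 lower by 1 log2 at 6 hpf. Over all genes the medians were 0.01, 0.01 and 0.22, and 18.3% were higher and 8.91% lower at 6 hpf. The 6 hpf median of these factors thus lay near that of all genes. MRRF, the factor that recycles ribosomes, was at 1.64 RPKM in controls and 5.57 in mutants at 6 hpf. MTRF1L, a release factor, was at 14.2 and 4.36, and GFM2, which acts in recycling, at 4.99 and 1.53. Mitochondrial aminoacyl-tRNA synthetases (11 kept of 12) had medians of 0.04, 0.03 and 0.59, led at each age by RARS2, which charges the arginine tRNA (3.84 and 13.4 at 2 hpf, 4.49 and 17.3 at 4 hpf, 0.522 and 3.63 at 6 hpf). Assembly and RNA factors (18 kept of 19) had medians of -0.07, 0.25 and -0.11. Among them the GTPase gene GTPBP10 was at 8.79 and 3.48 at 2 hpf and rbfa, for a factor of small subunit assembly, at 27.2 and 56.7 at 4 hpf and 3.03 and 10.4 at 6 hpf. Genes of mitochondrial transcription and RNA handling (5) had medians of 0.18, 0.45 and 0.09, with SLIRP, an RNA-binding protein gene, at 2.55 and 10.6 at 2 hpf and 7.68 and 19.2 at 4 hpf. The 5 mitochondrial ribosome or insertion genes with another symbol had medians of 0.27, 0.14 and 0.08, with 0 past 1 log2 at any age. Of all genes 4.14%, 3.79% and 18.3% were higher and 3.34%, 6.31% and 8.91% lower at 2, 4 and 6 hpf. DAP3, a small subunit protein, stood at 11.7 and 23.6 at 6 hpf.

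On the deposited scale, the RNAs that these ribosomes translate lay above control throughout. The median of those for ribosomal proteins of the cytosol crossed it between 4 and 6 hpf, as did that of all 65 members. The small subunit median did not, at 0.18, 0.32 and 0.29 at 2, 4 and 6 hpf. At 6 hpf 66 of the 71 cytosolic genes kept lay below control and 38 of 65 members, where 59.8% of all genes lay above it. The 13 protein-coding genes of mitochondrial DNA had medians of 0.60, 0.54 and 0.46, with all 13 above control at each age. Their lowest difference at 6 hpf was 0.07. Trimmed-mean rescaling takes off log2 factors of -0.65 from controls and -0.20 from mutants at 6 hpf. That lowers the 6 hpf differences of these 13 genes by nearly all of their median of 0.46. Under this rescaling the median is thus almost level with control at that age, and not all 13 genes lie above control. These 13 genes held 7.03%, 7.02% and 7.09% of summed RPKM in controls and 10.1%, 10.2% and 10.9% in mutants, shares that hardly differed between ages. The 71 cytosolic ribosomal protein genes kept had medians of 0.90, 0.48 and -0.35, above control at 2 and 4 hpf and below it at 6 hpf like those of the members. Their course in time was another one. In controls 59 of the 71 were higher by 1 log2 at 6 than at 4 hpf and 0 lower, with a median of 1.61. Over all genes 17.3% were higher and 35.1% lower, with a median of -0.52. The 65 members had 14 and 14, a balance that turned with the scaling as given above. In mutants the cytosolic median for that interval was 0.71 and that of the members -0.51, against -0.33 over all genes. Set against controls at 4 hpf, mutants at 6 hpf had 9 of 65 members higher and 9 lower by 1 log2 (10.4% and 16% of all genes), 28 above 0 against 36.6%, and a median of -0.14 against -0.29 over all genes.

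**Figure D5:**
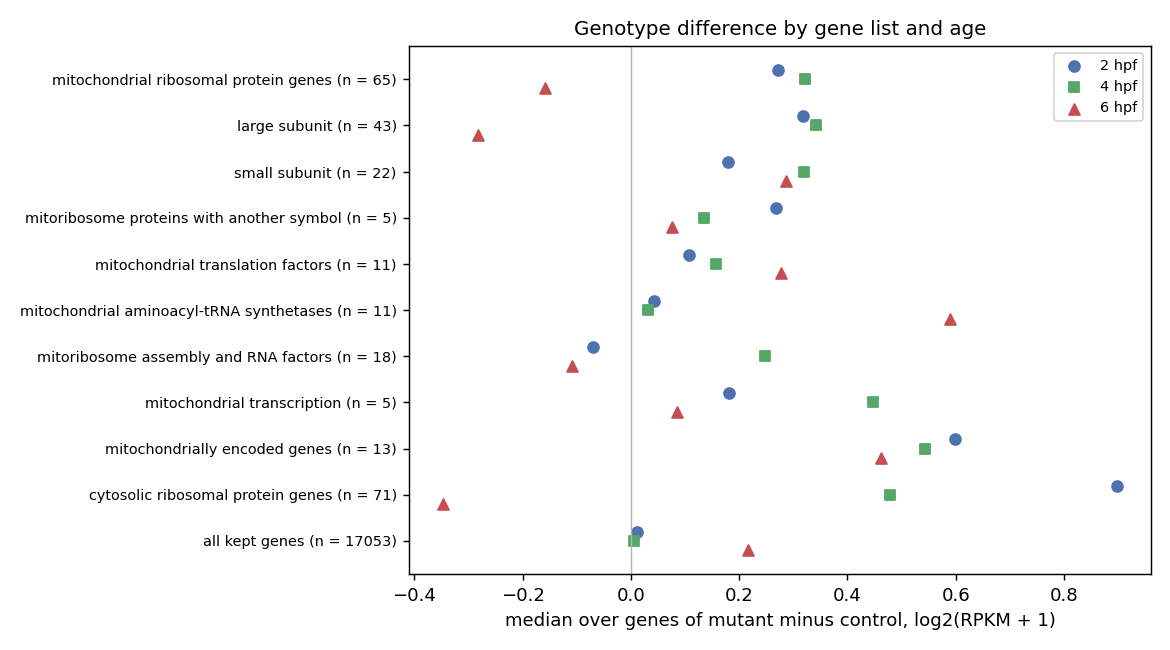
Median over genes of mutant minus control in log2(RPKM + 1) at 2 hpf (circles), 4 hpf (squares) and 6 hpf (triangles), for the members, their subunits and comparison lists, with the number of genes in brackets. Members and cytosolic ribosomal protein genes lie above 0 at 2 and 4 hpf and below it at 6 hpf, and mitochondrially encoded genes lie near 0.5 throughout. The comparison lists are shown on the deposited scale only. The small subunit's 0.29 at 6 hpf is -0.15 with trimmed-mean rescaling.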

How the data were processed

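The authors deposited RPKM values, 1 table for each of 6 groups and 1 value for each of 33737 Ensembl IDs. Cutadapt 1.13, Trimmomatic 0.36, HISAT2 2.0.5, SAMtools 1.9 and build Zv9 are named per the submitters' processing notes, with no roles. The libraries came from a stranded mRNA kit per the labels' protocols. No source used here gives the counting tool, the annotation, the use of strand or the way 2 samples became 1 value, so reads of overlapping genes may be shared, and depth and replicate error are unknown. Each table was assigned to the group whose genotype and age its name carries. The planned linear model needs a value per sample and was replaced by sizes, as the plan allowed.

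Symbols matched 21939 IDs. The 17053 genes that reached an RPKM of 1 in any table were compared as log2(RPKM + 1), and a gene was counted at 1 log2. Alternatives were pseudocounts of 0.1 and 0.5, other filters, trimmed-mean rescaling (30% of ratios and 5% of levels trimmed at either end), quantile normalization, summed IDs and a size of 0.5. Named members are the 5 highest and 5 lowest per comparison, those past 1 log2 (at most 10 a side; MRPS5 at 2 hpf was the 11th) and the 5 highest and lowest by mean RPKM; other genes named here were chosen after their values were seen. Sign patterns and course groups under other scalings were added after the data were seen, and planned promoter motif counts were not run. Members and lists were chosen with earlier results of these data known. Python 3.11.15, pandas 2.3.3, numpy 2.4.6 and matplotlib 3.10.9 were used, and the rescaling was tested on simulated data.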

Additional observations from a re-analysis of the deposited data

Results flagged for a closer look

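In 14 members the mutant lay at least 0.5 log2 above control at 1 age and at least 0.5 log2 below it at another, as did 6.17% of all 17053 genes. The difference between ages was not tested, since each group has 1 value, and it moves with the scaling of the 6 hpf tables. In 9 of them the higher age was 2 hpf and the lower 6 hpf. Of these, mrpl42 spanned 2.36 log2, MRPL57 2.30, mrpl54 1.97, mrpl52 1.83, mrpl53 1.74, MRPL37 1.71, MRPL24 1.60, MRPL4 1.52 and MRPL21 1.52. In the other 5 the higher age was 4 hpf, with spans of 1.98 for MRPL40, 1.48 for mrps6, 1.34 for mrpl30, 1.22 for MRPL1 and 1.21 for MRPL47. All but mrps6 are of the large subunit.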

How the results depend on the processing

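No paired analysis was possible because the tables hold 1 value per group and carry no replicate numbers, and for the same reason no replicate could be left out. Summed IDs and other filters on low values kept every count within 1.5 times and every median within 0.1 log2 of the values above, and counting MRPS18A with the large subunit kept every subunit median within 0.1 log2. With a pseudocount of 0.1, 2 members were higher in mutants at 6 hpf (30.4% of all genes), 13 increased from 2 to 4 hpf in controls (16.3%) and 4 from 4 to 6 hpf in mutants (17.7%). With 0.5, 2 were higher in mutants at 6 hpf (23.7%). With trimmed-mean rescaling the genotype median at 6 hpf was -0.60, with 0 higher and 18 lower. From 4 to 6 hpf the control median was then 0.84 (30 higher, 1 lower) and the mutant median -0.053 (7 higher, 5 lower), and 1 member was higher from 2 to 4 hpf in mutants (2.70% of all genes). With quantile normalization 7 were higher in mutants at 2 hpf, and at 6 hpf the median was -0.38 with 9 lower. From 2 to 4 hpf 3 were then higher in controls (6.55%) and 1 in mutants (2.52%), and from 4 to 6 hpf the medians were 0.47 in controls (23 higher, 3 lower) and -0.23 in mutants (7 higher, 5 lower). With a size of 0.5 log2, mutants at 2 hpf had 23 higher and 3 lower (14.8% and 10.9% of all genes), 21 and 1 at 4 hpf (16.7% and 16.3%) and 9 and 22 at 6 hpf (36.7% and 20.9%). From 2 to 4 hpf 28 were higher and 4 lower in controls (19.4% and 11.7%) and 16 higher in mutants (9.96%). From 4 to 6 hpf the counts were 23 and 26 in controls (25.9% and 50.4%) and 9 and 34 in mutants (20.5% and 41.6%). Shares of all genes under both scalings from 4 to 6 hpf and at 6 hpf stand beside the counts above. The cause of these moves was not tested. The genotype medians of all members at 2 and 4 hpf stayed within 0.1 log2 and above 0 under each setting run.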
